A study of Mus musculus with 60 samples.

Results

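The interferon-inducible GTPases *Irgm1*, *Irgm2*, *Igtp*, *Ifi47*, *Tgtp1*, *Tgtp2*, *Iigp1* and *Gbp2* and the transcription factor *Irf1* are described here. They are 9 of the 55335 genes counted in the kidneys of 60 mice, and each was found by matching its Ensembl row to its GENCODE symbol. The genes were chosen by the covariation of their levels between single mice, so this covariation is given as a description, with no test. Differences between genotypes and time points were tested. The genes were chosen with earlier results of these data known, so these tests cannot be taken as independent of that choice.

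The series compared male mice on a C57BL/6J background that all carried floxed *Bmal1* (*Arntl*) alleles. The cKOt mice also carried *Pax8*-rtTA and LC-1 Cre, which place Cre under the *Pax8* promoter of the renal tubule in the presence of doxycycline, and the control mice were their Bmal1lox/lox littermates. Both genotypes drank doxycycline (2 mg/mL) for 2 weeks from the age of 8 weeks, and kidneys were taken 4 weeks later at Zeitgeber time (ZT) 0, 4, 8, 12, 16 or 20, from 5 mice per genotype and time point. No mouse was given an interferon, so the name interferon-inducible is taken from other knowledge of these genes and was not tested in these samples.

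Interferon gamma is made mainly by T cells and NK cells and acts through its receptor, the JAK kinases and STAT proteins. STAT dimers bind the gamma-activated site, whose letters are TTCNNNGAA, and interferon regulatory factors bind paired GAAA elements. Among the induced genes, *Irgm1*, *Irgm2* and *Igtp* (also called *Irgm3*) encode the regulatory immunity-related GTPases, which sit on host membranes and hold the effector GTPases inactive there. *Ifi47*, *Tgtp1*, *Tgtp2* and *Iigp1* encode effector GTPases, which load onto the vacuoles of intracellular parasites. *Gbp2* encodes a guanylate-binding protein that joins them there, and *Irf1* encodes a transcription factor that is itself induced by interferon gamma.

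Of the 9 genes, 7 lie on chromosome 11 (GRCm38). *Irgm1* (ENSMUSG00000046879) is at chr11:48861968-48871683, *Tgtp1* (ENSMUSG00000078922) at chr11:48985327-48994172, *Tgtp2* (ENSMUSG00000078921) at chr11:49057194-49064206 and *Ifi47* (ENSMUSG00000078920) at chr11:49076587-49096974. *Irf1* (ENSMUSG00000018899) is at chr11:53770014-53778374. *Igtp* (ENSMUSG00000078853) at chr11:58199556-58207591 and *Irgm2* (ENSMUSG00000069874) at chr11:58199618-58222782 overlap on the same strand and share 162 exonic bases. *Gbp2* (ENSMUSG00000028270) is at chr3:142620602-142638008.

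Promoter windows of RefSeq (GRCm38.p6) were searched for 8 of the 9 genes, and *Iigp1* was left out of the search. Over 250 bases before the start and on both strands, the search was for the gamma-activated site TTCNNNGAA and the paired GAAA element (GAAA, any 2 bases, GAAA). The windows of *Irgm2*, *Igtp*, *Tgtp1* and *Tgtp2* held both, and in each the paired element began 11 bases after the start of the gamma-activated site. These windows are shown as a description, and whether their elements relate to the covariation of the genes was not tested. Over the 30 bases around both elements, *Irgm2* and *Igtp* had 29 of 30 letters in common, as did *Tgtp1* and *Tgtp2*, and the other pairs had 24 to 26. The last 100 bases before the RefSeq start are given, 5′ to 3′ on the strand of the gene, with both elements in capitals. GENCODE annotates 12 of these bases of *Tgtp1* as exon, and the windows of *Tgtp1* and *Irgm2* lie inside the spans of their genes given above.
Irgm2 (chr11:58214877-58214976, plus strand): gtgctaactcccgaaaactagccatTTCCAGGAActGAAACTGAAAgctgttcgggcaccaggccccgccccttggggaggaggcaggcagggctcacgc
Igtp (chr11:58199456-58199555, plus strand): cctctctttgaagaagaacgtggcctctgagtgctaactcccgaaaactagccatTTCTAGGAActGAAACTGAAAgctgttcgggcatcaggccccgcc
Tgtp1 (chr11:48992247-48992346, minus strand): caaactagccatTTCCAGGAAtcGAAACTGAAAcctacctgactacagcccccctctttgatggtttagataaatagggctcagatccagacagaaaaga
Tgtp2 (chr11:49064213-49064312, minus strand): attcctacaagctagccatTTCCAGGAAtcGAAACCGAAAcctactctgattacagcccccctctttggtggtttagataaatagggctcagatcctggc

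Of the other members, *Irf1*, *Irgm1* and *Gbp2* held 1 of the elements and *Ifi47* held neither. *Irf1* held the gamma-activated site in the window of 1 of its 2 start sites and no paired element, whereas *Irgm1* and *Gbp2* held the paired element, which in *Gbp2* reads on the opposite strand (TTTC, any 2 bases, TTTC) and in *Irgm1* occurred at overlapping positions. Of the last 100 bases before the RefSeq start, GENCODE annotates all 100 of *Irgm1* and 61 of *Gbp2* as exon of the same gene. The stretches that hold the elements are shown for comparison with the windows above.
Irf1 (chr11:53769914-53769943, plus strand): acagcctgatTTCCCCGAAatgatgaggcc
Irgm1 (chr11:48871428-48871457, minus strand): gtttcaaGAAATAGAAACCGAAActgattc
Gbp2 (chr3:142620594-142620623, plus strand): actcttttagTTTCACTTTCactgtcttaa

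The paired element was present for 6 of the 8 genes and in 2.98% of all 32851 windows of the same length. A gene was counted by a match in any of its windows, of which *Irf1* had 2, whereas the share over all is of single windows. The gamma-activated site was present for 5 of the 8 genes and in 7.02% of all windows, and both were present for 4 of the 8 genes and in 0.332%. The E-box CACGTG, the element bound by BMAL1 and CLOCK, was in no window of the 8 genes and in 6.02% of all windows. Matches are of letters alone, and windows of neighbouring copies such as *Tgtp1* and *Tgtp2* are not independent.

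RNA from frozen kidney pieces was sequenced to 17791420 to 20906706 counts on genes per sample, with a median of 18545208.5. The labels name the renal tubule, whereas the libraries also held markers of other kidney cells, with a summed level of 252 to 369 counts per 1000000 TMM-scaled counts (CPM) for 4 podocyte markers and 294 to 422 CPM for 6 endothelial markers, against 8427 to 13909 CPM for 6 markers of the proximal tubule. The targeted *Arntl* varied with time in control mice, from 2.73 ± 0.825 CPM at ZT8 to 48.4 ± 10.2 CPM at ZT0 (SD, n = 5). In cKOt mice it stayed between 17.4 ± 2.01 CPM at ZT12 and 24.4 ± 1.57 CPM at ZT0. The mice of the 2 genotypes overlapped at ZT16 alone. Elsewhere, all cKOt mice were lower than control mice at ZT0 and ZT20 and higher at ZT4, ZT8 and ZT12. In tissue RNA, fewer cells of a type and less RNA per cell cannot be told apart.

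All 9 genes, with *Iigp1* (ENSMUSG00000054072) at chr18:60376027-60392634, were detected in every mouse, with 42 counts (*Tgtp2*) to 1349 counts (*Irgm1*) per library. Per kilobase of exon, the mean over 60 mice was 9.41 ± 1.05 CPM for *Irgm1*, 8.69 ± 1.64 CPM for *Igtp* and 7.95 ± 1.42 CPM for *Irgm2* (SD, n = 60). These 3 regulatory GTPases were the highest, and neighbours in this order differed by less than the SD of either. *Gbp2* followed at 4.24 ± 0.916 CPM per kilobase and *Irf1* at 3.98 ± 0.627, which again differed by less than either SD. Of the effectors, *Iigp1* was at 3.02 ± 0.902 CPM per kilobase and *Ifi47* at 2.21 ± 0.449. *Tgtp2* was at 1.72 ± 0.443 and *Tgtp1* at 1.50 ± 0.466 CPM per kilobase, but their levels are uncertain. Of the stretches of 150 bases in their longest transcripts, 74.1% (*Tgtp1*) and 71.7% (*Tgtp2*) also occur in another gene, and reads without a unique position were not counted. That share was 0.854% for *Igtp* and 0 for the other 6 genes. The values per kilobase divide by all annotated exon bases of a gene, which can exceed its longest transcript. These lengths were 5810 against 3832 bases for *Irgm1*, 3976 against 2137 for *Irf1* and 5823 against 3121 for *Iigp1*. For *Gbp2* both were 2516. The order of the genes and the closeness of neighbours therefore depend on the length used.

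**Figure D1:**
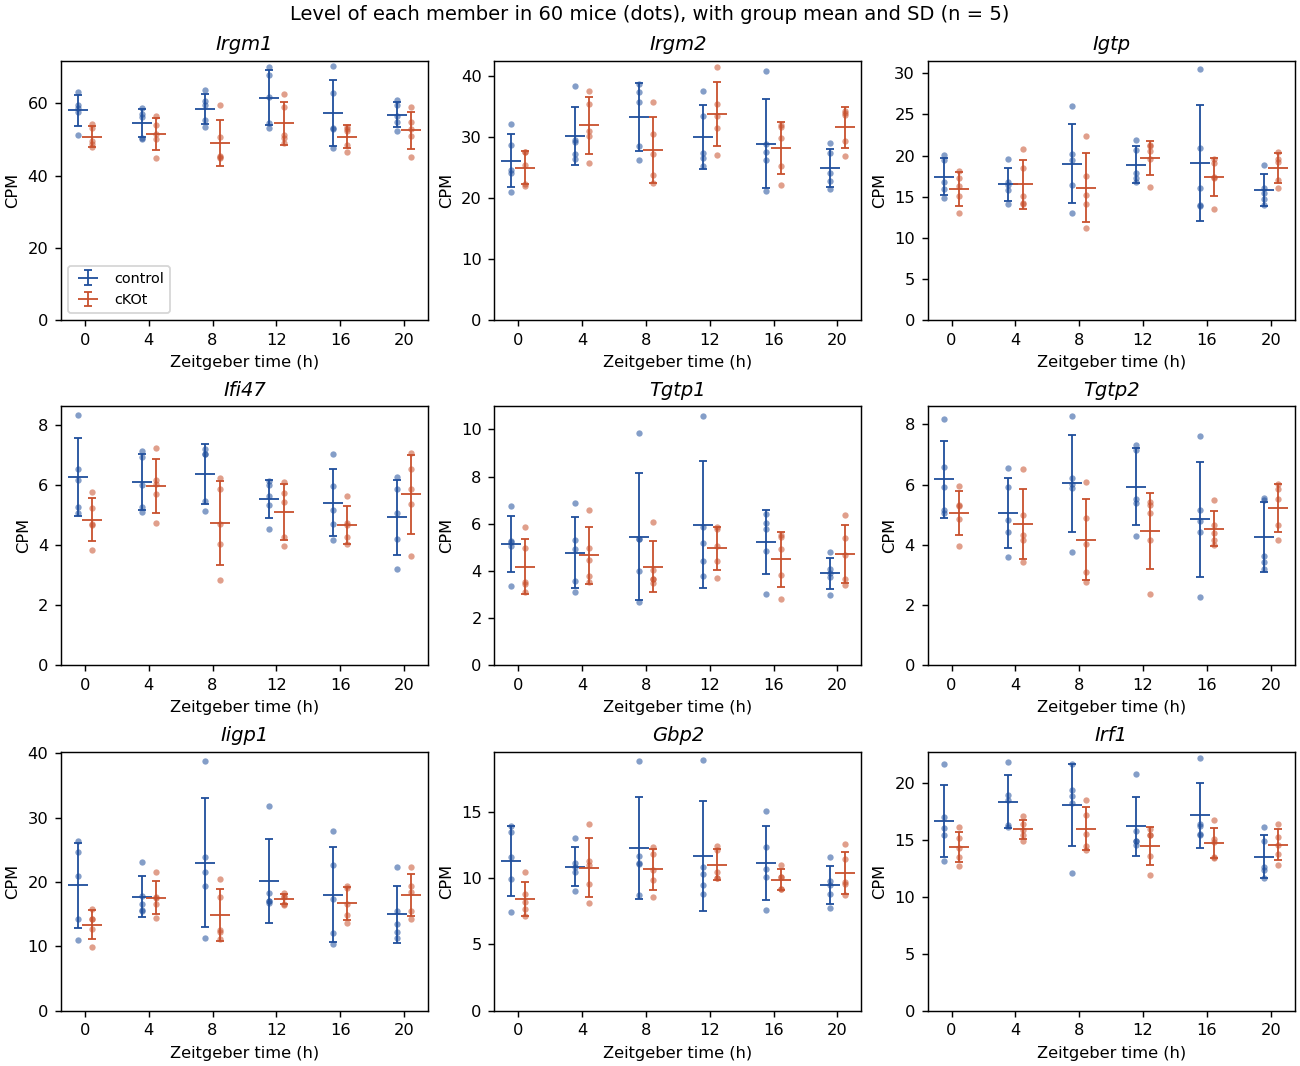
CPM of each gene (y axis, from 0) against Zeitgeber time in hours (x axis) for control (blue) and cKOt (orange) mice, with 1 dot per mouse and the group mean and SD of 5 mice. The genotypes overlapped for all 9 genes at all 6 time points, but the share of all genes with such overlap was not counted. Single mice stood well above their group, such as the control mouse at ZT8 with 38.8 CPM of *Iigp1*.

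The group means of *Irgm1* ran from 49.1 CPM (cKOt, ZT8) to 61.6 CPM (control, ZT12), and those of *Irgm2* from 24.9 CPM (control, ZT20) to 33.8 CPM (cKOt, ZT12). *Igtp* shared the groups at both ends with *Irgm2*, at 15.8 and 19.7 CPM. The effectors *Iigp1* and *Ifi47* were both highest in control mice at ZT8, at 23.0 and 6.37 CPM, and lowest in cKOt mice, at 13.4 CPM (ZT0) and 4.68 CPM (ZT16). *Tgtp1* ranged from 3.90 CPM (control, ZT20) to 5.96 CPM (control, ZT12) and *Tgtp2* from 4.17 CPM (cKOt, ZT8) to 6.17 CPM (control, ZT0). *Gbp2* ranged from 8.46 CPM (cKOt, ZT0) to 12.3 CPM (control, ZT8), and *Irf1* from 13.5 CPM (control, ZT20) to 18.3 CPM (control, ZT4).

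Whether loss of *Bmal1* from the tubule changed these genes was asked first over all 6 time points. *Irgm1* and *Irf1* were lower in cKOt mice, by small amounts, and the other 7 genes did not pass the test. *Irgm1* had a lowest, median and highest level of 47.7, 57.4 and 70.4 CPM in 30 control mice and of 44.8, 51.1 and 62.6 CPM in 30 cKOt mice. The genotypes overlapped widely, although the mean was lower in cKOt mice at all 6 time points. Its log2 fold change of cKOt over control was -0.17 (SE 0.032), with an adjusted p of 1.07e-05 (edgeR quasi-likelihood test, Benjamini-Hochberg over 15546 genes). *Irf1* had a lowest, median and highest level of 11.6, 16.1 and 22.2 CPM in control mice and of 11.9, 15.1 and 18.5 CPM in cKOt mice. Here the upper end of the range, rather than the lower, was the one that differed. Its log2 fold change was -0.13 (SE 0.045), with an adjusted p of 0.0105, and its mean was lower in cKOt mice at 5 of 6 time points.

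**Figure D2:**
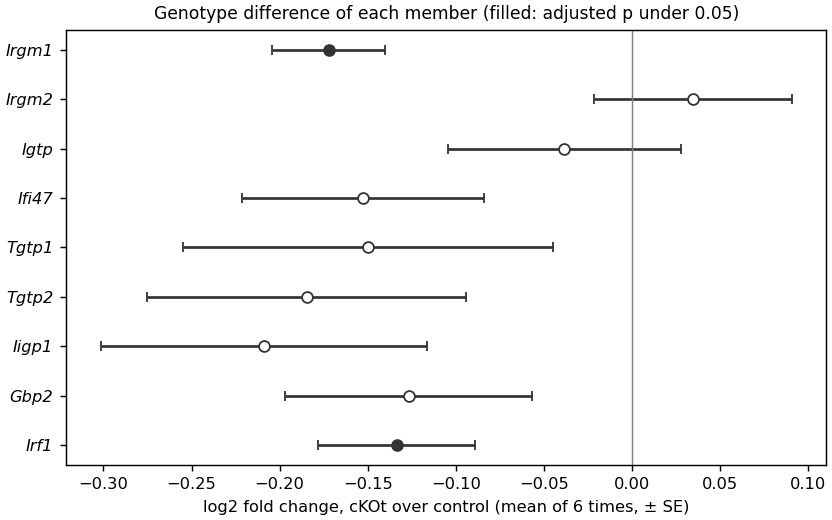
The log2 fold change of cKOt over control (x axis, mean of 6 time points, with SE bars) for each gene (y axis), with filled points for an adjusted p under 0.05. *Irgm1* at -0.17 and *Irf1* at -0.13 are filled, and *Irgm2* at 0.034 is the gene to the right of 0.

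The effector *Iigp1* had the largest fitted difference, a log2 fold change of -0.21 (SE 0.093), and did not pass (adjusted p = 0.0555, edgeR). Its lowest, median and highest levels were 10.3, 17.2 and 38.8 CPM in control mice against 9.88, 16.6 and 22.4 CPM in cKOt mice. *Ifi47*, with a log2 fold change of -0.15 (adjusted p = 0.0595), and *Tgtp2*, at -0.18 (adjusted p = 0.0849), also missed the threshold with edgeR, as did *Tgtp1* at -0.15 (adjusted p = 0.238) and *Gbp2* at -0.13 (adjusted p = 0.129). The regulators *Igtp* and *Irgm2* were close to 0, at -0.038 (adjusted p = 0.657) and 0.034 (adjusted p = 0.639). The 3 regulatory GTPases therefore gave different values, and the difference between them was not tested.

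Of the 9 genes, 2 were called lower and none higher by edgeR, and 5 had an unadjusted p under 0.05, all 5 lower. Over all 15546 genes, 23.2% were called lower, 26.8% higher and 50.0% in either direction. The share of these 9 genes called in either direction was below that of all genes, and the share called lower was close to it. Their median log2 fold change was -0.15, against 0.012 over all genes. The calls of *Irgm1* and *Irf1* were kept in all 74 alternative fits, whereas *Ifi47* was also called in 20 of them, *Iigp1* in 16 and *Tgtp2* in 3. With DESeq2 size factors in place of TMM, 4 genes were called (*Irgm1*, *Ifi47*, *Iigp1* and *Irf1*).

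Most of the T cell, macrophage and endothelial markers that were tested were lower in cKOt mice as well. Over all genes, 23.2% were called lower. Of the 7 T cell markers, 6 were tested and 4 were lower after the deletion. *Cd8a*, which encodes a chain of the CD8 coreceptor, had a log2 fold change of -0.63 (SE 0.11). The T cell markers *Cd3e*, *Cd3g* and *Cd4* were lower as well, and their summed level over the list ran from 3.64 to 10.1 CPM in control mice (median 4.67) and from 2.88 to 6.19 CPM in cKOt mice (median 3.98). Of the 7 macrophage markers, 6 were lower, with *Cd74* at -0.34 (SE 0.046), *Adgre1* at -0.27 (SE 0.064), *C1qa* at -0.23 (SE 0.064) and *C1qb* at -0.22 (SE 0.061). The summed macrophage level was 144 to 270 CPM (median 207) in control and 117 to 215 CPM (median 181) in cKOt mice. Of the 6 endothelial markers, 5 were lower by smaller amounts, from *Plvap* at -0.077 (SE 0.024) to *Emcn* at -0.13 (SE 0.025). Of 4 B cell markers, *Cd79b* alone was tested and was lower (-0.39, SE 0.12). None of 6 NK cell markers or 4 neutrophil markers passed the filter on low counts, and *Retnlg* and *Ly6g* were at 0 in at least 30 libraries. Of 6 proximal tubule markers, 3 were higher and 2 lower, and of 4 collecting duct markers, 2 were higher and 1 lower. The part of any cell type in the differences of *Irgm1* and *Irf1* was not tested.

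At single time points, 1 of 54 comparisons of a gene passed. *Irgm1* at ZT8 was at 63.7, 53.3, 59.6, 60.8 and 55.3 CPM in the 5 control mice and at 45.3, 45.3, 59.6, 44.8 and 50.7 CPM in the 5 cKOt mice. In cKOt mice, 4 values lay below the lowest control value, and the remaining value lay within the control range. The log2 fold change was -0.23 (SE 0.079) with an adjusted p of 0.0348 (edgeR), and the shares of all genes called lower and in either direction at ZT8 were 9.29% and 19.9%. At ZT8 a further 3 genes had an unadjusted p under 0.05 and no call, of which *Iigp1* had the largest log2 fold change at -0.57 (SE 0.23, adjusted p = 0.0645).

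The call of *Irgm1* at ZT8 was kept when any of 54 of the 60 libraries was left out, and lost on leaving out control mouse 1, 3 or 4 or cKOt mouse 1, 2 or 4 of ZT8 (0 calls over all time points). It was also lost with library batch in place of RUVs factors and without replicate 1, 2 or 4 of every group. It was kept in 63 of 73 alternatives, with an adjusted p of 0.0077 to 0.18. Without cKOt mouse 5 of ZT8, 4 genes were called at ZT8 (*Irgm1*, *Ifi47*, *Tgtp2* and *Iigp1*). At the other time points no gene passed with edgeR or limma-trend, where 12.1% (ZT0), 12.5% (ZT4), 21.0% (ZT12), 19.8% (ZT16) and 13.8% (ZT20) of all genes were called. With an unadjusted p under 0.05 there were 4 genes at ZT0, 1 at ZT12, 1 at ZT20 and none at ZT4 or ZT16. The gene at ZT20 was *Irgm2*, which was at 21.4 to 29.0 CPM in control and 26.8 to 34.3 CPM in cKOt mice. Its log2 fold change was 0.34 (SE 0.14, adjusted p = 0.102, edgeR).

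Time of day was tested next. In control mice, none of the 9 genes passed with edgeR or limma-trend, against 30.6% of all genes, and *Irgm2* and *Irf1* had an unadjusted p under 0.05 (adjusted p = 0.110 for both, edgeR). In cKOt mice none passed and none had an unadjusted p under 0.05 with edgeR, nor a call with limma-trend, against 26.6% of all genes. The genotype difference varied with time for 3.08% of all genes and for none of the 9, where edgeR gave adjusted p values from 0.492 (*Irgm2*) to 0.984 (*Irgm1*), no unadjusted p under 0.05, and limma-trend gave no call.

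In the 5 models of rhythm used by the study, a gene is assigned where the Bayesian information criterion gives 1 model a weight of at least 0.65. Of the 9 genes, 7 were assigned to model 1, with no rhythm in either genotype, *Irf1* to model 4, with the same rhythm in both, and *Irgm2* to none. Rhythmic models took 37.3% of all 15546 genes. *Irf1* had a weight of 0.674, close to the threshold. Peak times and amplitudes were taken from a fit with a separate curve for each genotype, whereas model 4 shares them. In that fit, *Irf1* had a peak at ZT7.20 in control and ZT6.02 in cKOt mice. Its difference from peak to trough was 0.26 and 0.17 on the log2 scale. *Irgm2* leaned towards model 2, rhythm in control mice alone, with a weight of 0.524 and a control peak at ZT8.51. With 1 RUVs factor or none, *Irf1* was not assigned either, so that no gene had a rhythmic model.

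The covariation between single mice, by which the genes were chosen, is described next. The deviation of each mouse from the mean of its own group was taken on the log2 CPM scale, and a member score was the mean over the 9 genes of these deviations, each divided by its SD. Of the 60 mice, 9 had all 9 genes above the group mean and another 9 had none above it. A control mouse of ZT16 (replicate 5) had the highest score, 1.90, and a control mouse of ZT8 (replicate 5) the lowest, -1.72.

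In the control group of ZT16, *Igtp* was at 30.5 CPM in the mouse with the highest score and at 13.9 to 21.0 CPM in the other 4, and *Irgm2* was at 40.8 CPM against 21.2 to 28.9 CPM. In the control group of ZT8, *Iigp1* was at 38.8, 19.3, 23.8, 21.6 and 11.3 CPM and *Tgtp1* at 9.85, 4.00, 5.35, 5.35 and 2.68 CPM in replicates 1 to 5. The same mouse was the highest of the group for both, and another the lowest for both. The control mouse of ZT12 with a score of 1.44 had 31.9 CPM of *Iigp1*, 19.0 CPM of *Gbp2* and 10.6 CPM of *Tgtp1*, and each of these was the highest of its group.

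**Figure D3:**
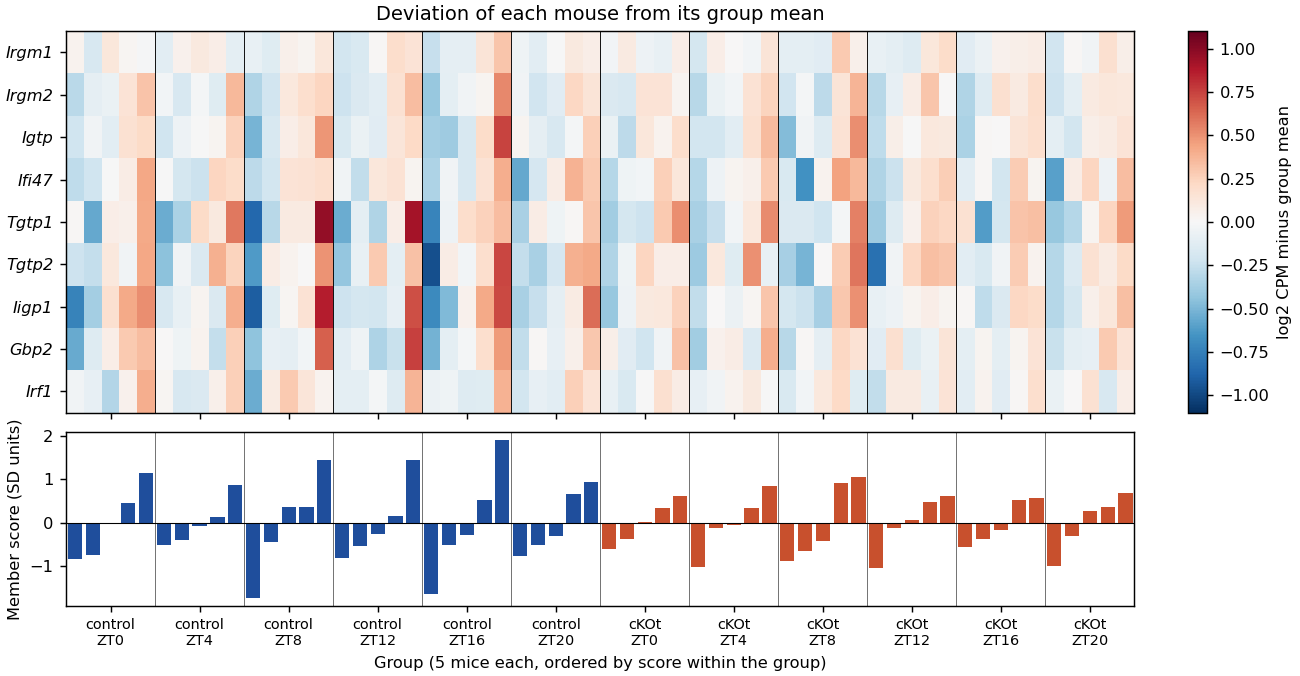
The upper panel shows, for each of 60 mice (columns, ordered by score within each group of 5) and each gene (rows), the difference of log2 CPM from the group mean in colour from -1.1 to 1.1, and the lower panel shows the member score in SD units for control (blue) and cKOt (orange) mice. Columns tend to have 1 colour throughout, and the scores ran from -1.72 to 1.90 in control and from -1.04 to 1.04 in cKOt mice.

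Over the 36 pairs of genes, the deviations had a median Pearson r of 0.60 (Spearman rho 0.63) over 60 mice, and all 36 pairs were above 0. *Irgm2* and *Igtp*, which share exonic bases, had the highest r of 0.85. *Iigp1* and *Gbp2*, on different chromosomes, followed at 0.84, and *Tgtp1* and *Iigp1* were at 0.82. *Tgtp1* and *Tgtp2*, the pair with the most shared sequence, were at 0.69. The lowest r was 0.24, between *Irgm1* and *Irf1*, the 2 genes that were lower in cKOt mice.

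Against the mean of the other 8 genes, *Iigp1* was the most alike (r = 0.89), followed by *Irgm2* (0.86) and *Igtp* (0.84), and *Irgm1* (0.63) and *Irf1* (0.60) were the least alike (n = 60). A single component took 68.0% of the variance of the 9 genes and the next 8.55%. The points share their library and its scaling. The members also differed in how far they moved. The SD of the deviations was 0.14 for *Irgm1* and 0.19 for *Irf1*, and reached 0.39 for *Iigp1*, 0.37 for *Tgtp2* and 0.42 for *Tgtp1* on the log2 scale. Counting error alone gives an SD of 0.045 for *Irgm1* and 0.15 for *Tgtp1* and *Tgtp2*.

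**Figure D4:**
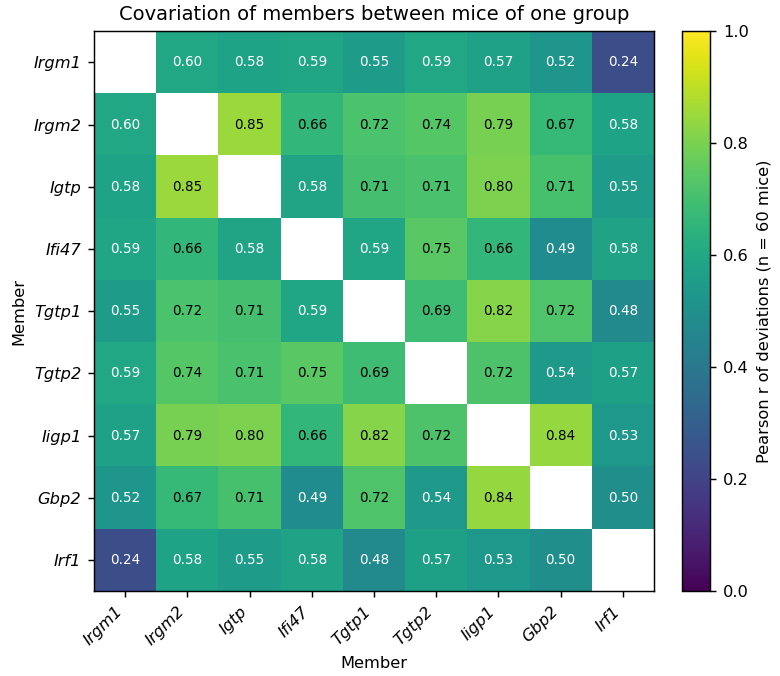
Pearson r (colour and printed value) of the deviations of each pair of genes (rows and columns) over 60 mice. Values range from 0.24 for *Irgm1* with *Irf1* to 0.85 for *Irgm2* with *Igtp*.

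The median r was 0.68 within the 30 control mice and 0.59 within the 30 cKOt mice, and 0.56 without the 2 mice farthest from the median score. With the library batch of the study's sample list removed as well it was 0.60, and after correction for 2 RUVs factors 0.62. The mean score of the 6 batches ran from -0.34 to 0.44, and each batch held mice above and below 0. The spread was wider in control mice for 8 of the 9 genes. For *Iigp1*, the SD of the deviations was 0.49 in control and 0.25 in cKOt mice, for *Gbp2* 0.34 and 0.21 and for *Irf1* 0.24 and 0.14, whereas *Ifi47* had 0.27 and 0.30. Equality of these SDs was not tested.

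Across mice, the score had a Pearson r of -0.10 with the log2 number of counts and 0.0080 with the share of reads outside genes (n = 60). With the TMM factor r was 0.28 and with the RUVs factors -0.18 and -0.27. It had an r of 0.49 with the summed T cell markers (Spearman rho 0.39), 0.40 with the macrophage markers, 0.27 with the thick ascending limb markers, -0.46 with the proximal tubule markers and -0.33 with the collecting duct markers. Without the 2 farthest mice these were 0.39, 0.31, 0.28, -0.41 and -0.25. With the endothelial markers r was -0.063. The part of any cell type or of the scaling in the covariation was not tested.

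Among 13772 other genes with a mean of at least 1 CPM, 50 had an r above 0.5 with the score and 4 below -0.5, and the median was -0.015. The most alike was *Gbp6*, another guanylate-binding protein (r = 0.80, rho = 0.81), and *Gbp4* of the same family was at 0.73. *Fgl2*, *Fcgr4*, an activating Fc receptor of myeloid cells, and *Ctss*, a lysosomal protease of antigen-presenting cells, were at 0.72, 0.72 and 0.69. *Cxcl9*, a chemokine that attracts T cells, was at 0.69 and *Nlrc5*, the transactivator of MHC class I genes, at 0.69. *BC023105* at 0.67 and *Mpeg1*, a pore-forming protein of macrophages, at 0.64 were also among the 10 most alike. Without the 2 farthest mice these values ran from 0.54 (*Mpeg1*) to 0.77 (*Gbp6*).

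**Figure D5:**
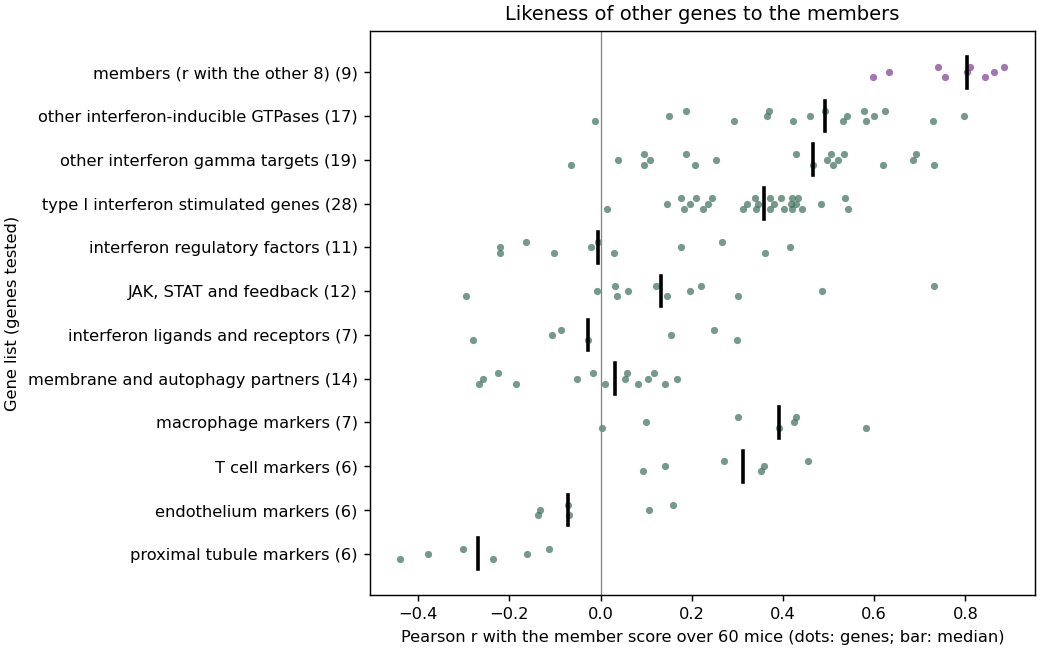
Pearson r with the member score over 60 mice (x axis) for the genes of each list (y axis, number of genes tested in parentheses), with 1 dot per gene and a bar at the median. The other interferon-inducible GTPases had a median of 0.49, the other interferon gamma targets 0.47, and the proximal tubule markers -0.27.

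The pathway around these genes was described from lists. Their counts of calls are read against the shares of all genes, with 23.2% called lower, 26.8% higher and 50.0% in either direction. Of 11 ligands and receptors, 7 were tested and 6 called. *Ifng*, the ligand, was at 0 in 41 of 60 libraries and *Ifnb1* in 59, so neither could be compared. In cKOt mice *Il10rb*, a receptor chain shared by interferon lambda, was lower (log2 fold change -0.38, SE 0.029), as were *Il18* (-0.29, SE 0.072), *Ifngr2* (-0.16, SE 0.030) and *Ifnar1*, whereas *Ifnlr1* (0.29, SE 0.054) and *Ifngr1* were higher. The receptors had r values with the score from -0.11 (*Ifnar1*) to 0.30 (*Ifngr2*).

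Of 12 JAK, STAT and feedback genes tested, 3 were called, a share below that of all genes. The gene that was lower was the kinase *Jak1* (-0.11, SE 0.019), and those that were higher were *Tyk2* (0.099, SE 0.023) and *Pias1* (0.075, SE 0.018). The list of interferon regulatory factor genes also held *Irf2bp1*, *Irf2bp2* and *Irf2bpl*, which encode IRF2-binding proteins. Of its 11 genes tested, 4 were higher and 1 lower, a share close to that of all genes. *Irf2bpl* was higher (0.16, SE 0.048), as was *Irf9*, a partner of STAT proteins (0.13, SE 0.034), and *Irf4*, a factor of lymphocytes, was lower (-0.67, SE 0.13).

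Of 17 other guanylate-binding and interferon-inducible GTPases tested, 1 was higher, *Gbp7* (0.23, SE 0.054), and 1 lower, *Gbp8* (-0.49, SE 0.13), and 8 had an r above 0.5 with the score. The 19 other interferon gamma targets tested held 8 lower and 1 higher. *Cxcl10* (-0.57, SE 0.093) and *Cxcl11* (-0.44, SE 0.095), chemokines for activated T cells, *Ciita* (-0.47, SE 0.088), the transactivator of MHC class II genes, and *Ubd* (-0.51, SE 0.21) had the largest differences. The median log2 fold change of this list was -0.10. Over all genes, 23.2% were called lower, 26.8% higher and 50.0% in either direction. The former list held 1 lower and 1 higher of 17, and the latter 8 lower and 1 higher of 19.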

How the data were processed

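RNA from 60 mouse kidneys was measured in stranded poly(A) libraries. The authors aligned reads and deposited whole-number counts per Ensembl gene. The submitters' processing notes name cutadapt 1.8, STAR 2.5.3a, HTSeq 0.9.1 and GRCm38. The strand setting of the counting is not given in the sources used here. Of these reads, 7.17% to 10.6% fell outside genes and, like ambiguous and non-unique reads, stayed out of library sizes. Symbols came from GENCODE M21 (55154 of 55335 IDs). The authors chose 5 of 6 mice per group by RNA quality and clustering. Their sample list marks 1 deposited sample (cKOt, ZT16) for removal, and it was kept here.

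The 15546 genes that reached 1 CPM in any sample were fitted with edgeR 4.0.16 in R 4.3.3. The fit used TMM library sizes, 12 groups and 2 RUVs factors, with adjusted p under 0.05 as the threshold. RUVs and the dryR models were written anew and tested on simulated data. CPM values are counts per 1000000 TMM-scaled counts, and deviations used log2 CPM with a prior count of 2. Alternatives included DESeq2 1.42.0 and limma 3.58.1. The p values rest on the spread between mice that is left after the 2 RUVs factors, which were themselves estimated from differences between mice of one group. Counting error at this depth is given beside the spread, and none of 120 pairs of replicates agreed within sampling noise (squared differences at least 5.59 times it).

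The 9 genes and all lists were chosen with earlier results of these data known. The genes named are the 9, the 10 most alike, *Arntl* and, per list, up to 4 with the largest called log2 fold change, and others where a count of 5 or fewer is listed or a value bears on a result. Some genes that this rule covers are not reported here.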

Additional observations from a re-analysis of the deposited data

Results flagged for a closer look

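In 7 of 108 sets of 5 mice (9 genes in 12 groups), 1 mouse stood apart from the nearest of the others by more than 0.71 of the range of its group, and chance flags about 1 set in 20. All 7 were the highest of their group. In control mice at ZT12, replicate 5 had 18.95 CPM of *Gbp2*, 31.89 CPM of *Iigp1* and 20.75 CPM of *Irf1*. In control mice at ZT16, replicate 5 had 22.17 CPM of *Irf1*. In control mice at ZT4, replicate 5 had 38.39 CPM of *Irgm2*. In control mice at ZT8, replicate 1 had 18.84 CPM of *Gbp2*. In cKOt mice at ZT8, replicate 5 had 6.08 CPM of *Tgtp1*. These 5 mice included the 3 highest member scores, but the score is built from the same 9 genes, so this is no separate result.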

How the results depend on the processing

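*Irgm1* (-0.20 to -0.15) and *Irf1* (-0.15 to -0.12) kept their direction and call in all 74 alternative fits of the mean genotype difference. The number of the 9 genes called was 4 with DESeq2 size factors and 2 or 3 in the other 8 alternatives, including the fit without the cKOt mouse of ZT16 marked for removal (2 called). It ranged from 2 to 5 when single mice or replicate numbers were left out in turn, all lower in cKOt mice, with 4 or 5 called without control mouse 1 or 5 of ZT0, 2 or 5 of ZT8, 1 of ZT16 or 2 of ZT20, or cKOt mouse 3 of ZT4, 5 of ZT8, 1 of ZT16 or 4 of ZT20. At single time points, 0 genes were called with library batch in place of RUVs, and 0 to 9 when replicates were left out, with all 9 calls in the fit without replicate 5 (8 at ZT8 and *Iigp1* at ZT0). It was 2 without control mouse 5 of ZT8, 1 or 3 of ZT12 or 1 of ZT16, or cKOt mouse 3 of ZT8 or ZT12. Time in control gave 1 call (*Irf1*) without RUVs factors, 0 to 3 when replicates were left out, and 1 without control mouse 5 of ZT8. Time in cKOt and the variation of the genotype difference with time gave 0 or 1, the call being *Ifi47* without replicate 1 or *Irgm2* without replicate 5 for the former and *Irgm2* without replicate 5 for the latter. A rhythmic model was assigned to 0 genes with 1 RUVs factor, with none and at a weight of 0.8, to 2 at a weight of 0.5, and to 0 or 1 when replicates were left out. The median r between genes stayed between 0.56 and 0.69 in all 13 alternatives. The cause of these changes was not tested.

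Replicate numbers share only a number. Residuals of same-numbered mice of different groups had a median correlation of 0.013 over 330 pairs, against 0.00065 over 1320 other pairs, and 14 of 60 mice correlated best with their own number. With the replicate block, 2 genes were called for genotype, 1 at single time points and 0 in the other comparisons, as without it. *Tgtp1* and *Tgtp2*, with a median of 91 and 92.5 counts per library, were measured least precisely.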

Other observations

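Of 28 type I interferon stimulated genes tested, 5 were higher and 4 lower in cKOt mice, which is below the 50.0% of all genes called in either direction. *Cmpk2*, a mitochondrial nucleotide kinase, was higher (log2 fold change 0.18, SE 0.029). *Oasl1* (-0.30, SE 0.10), *Ifit3b* (-0.16, SE 0.046) and *Ifit3* (-0.14, SE 0.040) were lower. The median r of this list with the member score was 0.36, against 0.47 for the interferon gamma targets, and the difference was not tested.

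Of 14 partners of the GTPases in membrane and autophagy functions, 8 were lower and 1 higher, against 23.2% and 26.8% of all genes. *Atg3* (-0.36, SE 0.027), which conjugates the LC3 and GABARAP proteins to membranes, *Sqstm1* (-0.34, SE 0.020), an autophagy receptor, and *Rnf213* (-0.23, SE 0.048) were lower, and *Gabarapl1* was higher (0.19, SE 0.027). Their r values with the member score ran from -0.27 to 0.17.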
